A study of Mus musculus with 36 samples.

Results

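The liver of Myc+/- mice at 24 months of age was compared with the liver of Myc+/- mice at 5 months, on 6 of the 36 arrays of the series (3 technical arrays of 1 RNA pool at each age). The arrays were chosen by their labelled tissue, genotype and age, and every probe set with 1 gene symbol was considered (21789 of 35556). The study asked how lowered Myc expression bears on longevity and healthspan, and measured liver, skeletal muscle and adipose tissue of Myc+/- and wild type mice at both ages. The 24-month Myc+/- pool held equal amounts of RNA of 8 mice and the 5-month Myc+/- pool RNA of 5 mice. The wild type pools set beside them held RNA of 5 mice at 24 months and 6 mice at 5 months. All animals were C57Bl/6 males fed ad libitum under a fixed light-dark cycle, and all Myc+/- animals of both ages were heterozygous for Myc, so the comparison is of age within a genotype. Each age had 1 pool, so differences between the mice of a cohort were averaged away before the arrays were run, and the 3 arrays measure array-to-array error alone.

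Myc encodes a transcription factor that drives cell growth, ribosome production and division. The liver stores and makes fat and glucose, secretes most plasma proteins, and runs much of its metabolism under the circadian clock and the pulses of growth hormone that differ between the sexes. Ageing of mouse liver is known for a gathering of immune cells in the tissue and for interferon signalling.

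The tissue carried its label. All 16 tested hepatocyte identity genes were bright in both Myc+/- pools, with a median level of 13.99 at 24 months and 13.85 at 5 months (log2), and none met the call rule below. Alb, which encodes serum albumin, read 14.77, 14.82 and 14.88 on the 24-month arrays, against 13.74, 14.82 and 14.73 on the 5-month arrays. The first 5-month array stood apart at the top of the scale. Its 205 brightest probe sets (mean above 13, log2) had a median of -0.45 against the other 2 arrays of its pool, while its 7333 dimmest (mean up to 9) had -0.02. On the arrays of the other 3 liver pools this bright-end median lay between -0.02 and 0.02. Without that array 17 of the 335 genes considered by name changed sign, and 0 of these met the call rule. Values below are with all arrays, and are given without it too where the call, the sign or the size depended on it. Without it the hepatocyte median difference was -0.08, against 0.12 with it.

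Myc itself read 8.31, 8.21 and 8.44 in 24-month livers, against 8.03, 8.07 and 7.81 in 5-month livers (Myc+/-). The arrays of the ages did not overlap, and the difference was 0.35 ± 0.19 on the log2 scale (SE, limma, adjusted p = 0.23), below the size called here. In wild type liver Myc averaged 8.56 at 24 months and 8.57 at 5 months.

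A probe set was called higher or lower where its pool means differed by at least 1.5-fold and the 3 arrays of 1 age all lay above the 3 of the other. This describes 2 RNA mixtures and is no test. Of 13073 tested probe sets, 1101 were called higher (8.42% of those tested) and 448 lower (3.43%) in the 24-month pool. Higher calls made up 71.1% of all calls on the deposited values. That share was 53.3% (796 higher, 698 lower) when each array was centred on its median and 57.5% (847 higher, 627 lower) after quantile normalization of the liver arrays alone. Centring moved the median of all differences by -0.10 on the log2 scale, so the surplus of higher calls depends on the scaling, and differences smaller than this are given no direction below.

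Taking 1 probe set for each of 11923 genes, 1040 genes (8.72%) were called higher and 341 (2.86%) lower, around a median difference of 0.06 over all genes. At least 4-fold differences numbered 34 higher and 10 lower. A limma fit with the spread of the muscle and adipose pools as its error passed 2113 genes higher (17.7%) and 925 lower (7.76%) at an adjusted p under 0.05, and passed 92.3% of the called genes. This fit assumes that each lone liver pool varies as pools of the other tissues do, and genes that only liver expresses have little level there from which to learn a spread. In what follows, "rose" and "fell" are used of genes that passed this fit, ± is its SE, and each adjusted p is its own, by Benjamini-Hochberg. Levels and differences are on the log2 scale, and gene groups are described by counts and medians alone. Group counts stand against the 8.72% of all genes called higher and the 2.86% called lower, and a count near that share is no result about the group. In bulk tissue more cells of a type cannot be told apart from more RNA per cell.

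**Figure D1:**
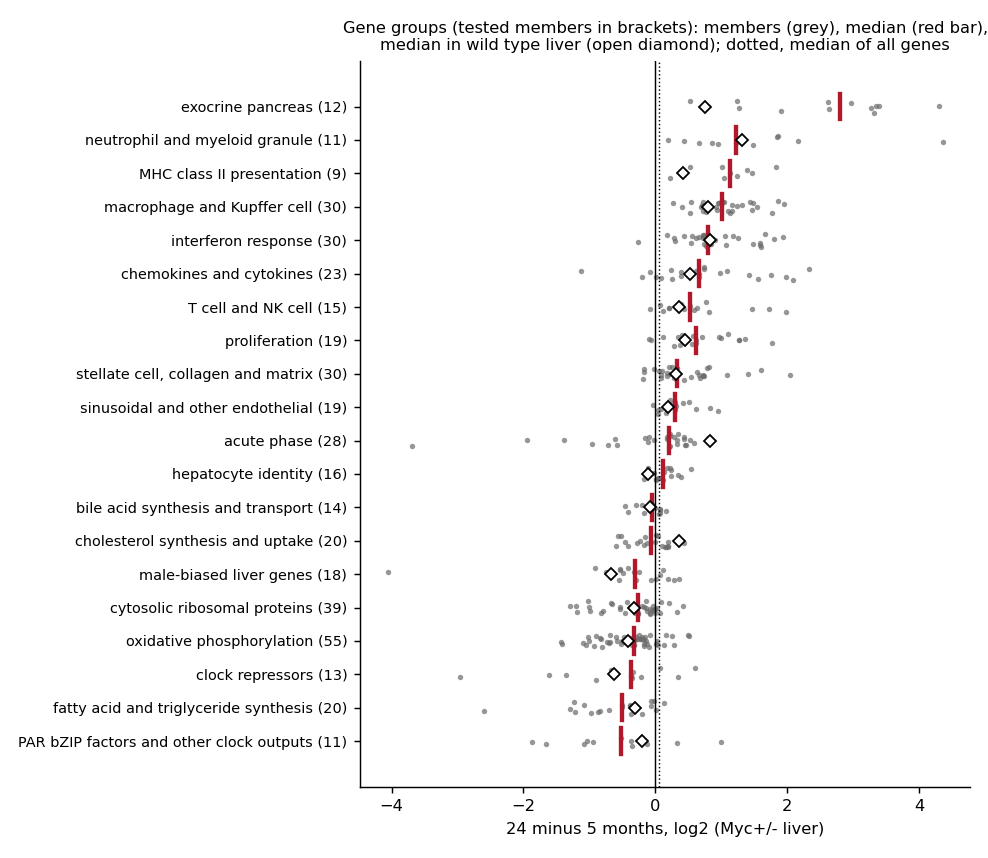
Differences between 24 and 5 months in Myc+/- liver (horizontal axis, log2) for the tested members of 20 gene groups. Grey points are genes, the red bar is the group's median, the open diamond is the median of the same genes in wild type liver, and the dotted line marks the median of all genes (0.06); the exocrine pancreas group reached 2.80 and the clock output group -0.53.

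Interferon-induced genes were higher as a group. Of 30 tested members, 23 were called higher and 0 lower, 24 rose in the fit, and the median difference was 0.80, against 0.06 for all genes. Irf7, the transcription factor that amplifies the type I interferon response, read 11.13, 11.19 and 11.38 in 24-month livers, against 9.30, 9.33 and 9.24 in 5-month livers. Irf7 met the call rule and rose 3.83-fold (1.94 ± 0.20, adjusted p = 0.0035). Oasl2, of the family of double-stranded RNA sensors, rose 3.48-fold (adjusted p = 0.0023), and Rsad2, which encodes the antiviral enzyme viperin, rose 3.18-fold (adjusted p = 0.0024). Usp18, which removes ISG15 from proteins, Trim30a and the nucleic acid sensor Zbp1 rose 3.05-fold, 3.01-fold and 3.00-fold. Ifi35 differed by 0.17, with adjusted p = 0.20. Class I antigen presentation moved less: 1 of 11 tested members was called, the non-classical class I gene H2-Q4 (0.62 ± 0.15), and that call was lost when the arrays were centred.

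The interferon-stimulated response element, searched as GAAANNGAA on either strand, was present in the 250 bases before the start of 13 of the 23 interferon genes that had a RefSeq promoter entry (56.5%). It was present in 8.18% of the 27025 genes with such an entry. The upstream sequences of Rsad2 and of the first listed start of Trim30a are shown because they carry the match, which on this strand reads as its reverse complement, and because both genes rose at least 3-fold. They are from RefSeq (GRCm38.p6), 5′ to 3′ on the minus strand, with the match in capitals, at chr12:26456453-26456702 and chr7:104465194-104465443.
Rsad2: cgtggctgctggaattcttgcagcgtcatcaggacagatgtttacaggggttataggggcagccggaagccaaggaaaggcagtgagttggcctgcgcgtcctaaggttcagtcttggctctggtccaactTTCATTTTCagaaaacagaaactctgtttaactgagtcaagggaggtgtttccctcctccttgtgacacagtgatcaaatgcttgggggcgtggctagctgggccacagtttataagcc
Trim30a: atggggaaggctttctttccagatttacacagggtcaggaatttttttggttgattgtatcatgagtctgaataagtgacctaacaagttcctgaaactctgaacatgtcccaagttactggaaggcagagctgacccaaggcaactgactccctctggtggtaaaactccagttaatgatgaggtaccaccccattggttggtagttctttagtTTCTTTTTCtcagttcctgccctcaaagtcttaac
Counted from the start of the gene, the match ended at position -111 in Rsad2 and at -27 in Trim30a. A match is a description of these letters and shows no binding.

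Macrophage and Kupffer cell genes were higher, with 26 of 30 tested members called, 0 lower and a median of 1.01. Every tested member read above 0, from 0.27 to 1.95. Cybb, the catalytic subunit of the phagocyte NADPH oxidase, read 11.90, 11.88 and 11.76 at 24 months, against 9.82, 10.01 and 9.86 at 5 months, and rose 3.86-fold (1.95 ± 0.25, adjusted p = 0.0064). Cd53, a leukocyte tetraspanin, rose 3.62-fold, and Itgam, which encodes the integrin CD11b, rose 3.41-fold. Lyz2, the macrophage lysozyme, rose 2.90-fold and Laptm5 2.77-fold. Trem2, a lipid-sensing receptor of macrophages, was called at 1.48 ± 0.48 but missed the test (adjusted p = 0.074).

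Neutrophil and myeloid granule genes had 9 of 11 tested members called higher and a median of 1.22. Ngp, a neutrophil granule protein, had the second largest increase of all called genes, at 10.26, 10.10 and 10.16 in 24-month livers against 5.73, 5.77 and 5.95 in 5-month livers, a 20.5-fold rise (adjusted p = 0.0017). The granule enzymes Mpo (myeloperoxidase) and Elane (neutrophil elastase) rose 4.48-fold and 2.78-fold, S100a8 3.62-fold and Retnlg 3.57-fold. S100a9, the partner of S100a8 in calprotectin, was called at 1.22 ± 0.45 with adjusted p = 0.10. Of these genes 2 lay above a 60th percentile brightness filter, so most of the group is dim.

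MHC class II genes, with which cells present antigen to helper T cells, had 7 of 9 tested members called higher, 0 lower and a median of 1.13. Cd74, the invariant chain, read 12.46, 12.30 and 12.45 in 24-month livers, against 10.57, 10.60 and 10.57 in 5-month livers, and rose 3.54-fold (1.82 ± 0.12, adjusted p = 0.0019). H2-Ab1, H2-Aa and H2-Eb1, the classical class II chains, rose 2.76-fold, 2.63-fold and 2.37-fold, and the peptide loader H2-DMa 2.05-fold. In wild type liver the same 9 genes had a median of 0.42 and 4 were called. The difference between the genotypes was 1.04 for Cd74 and 0.97 for H2-Aa, and neither passed its own test (adjusted p = 0.21 and 0.14).

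Of 23 tested chemokine and cytokine genes, 13 were called higher and 1 lower (median 0.66). Cxcl13, which attracts B cells, read 11.70, 11.46 and 11.50 in 24-month livers against 9.20, 9.31 and 9.16 in 5-month livers, a 5.02-fold rise (adjusted p = 0.0073). Ccl3, Ccl5 and Ccl6 rose 4.27-fold, 3.93-fold and 3.38-fold, and the monocyte attractants Ccl7 and Ccl2 rose 2.95-fold and 2.68-fold. The member called lower was Cxcl1, which draws in neutrophils and read 8.82 in 24-month liver against 9.94 in 5-month liver. Cxcl12 differed by -0.08 and Cx3cl1 by 0.08, and by -0.13 and 0.15 without the first 5-month array.

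Lymphocyte genes were dim, with 14 of 29 T cell and NK cell genes on the array below the brightness filter. Of the 15 tested, 6 were called higher and 0 lower. Nkg7, a cytotoxic granule protein, rose 3.30-fold and the T cell receptor chain Cd3g 2.76-fold. Of 11 tested B cell and plasma cell genes 6 were called higher, and 4 when the arrays were centred. Jchain, which joins secreted IgA and IgM, rose 2.80-fold, whereas Igha was called at 1.09 ± 0.35 with adjusted p = 0.07.

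**Figure D2:**
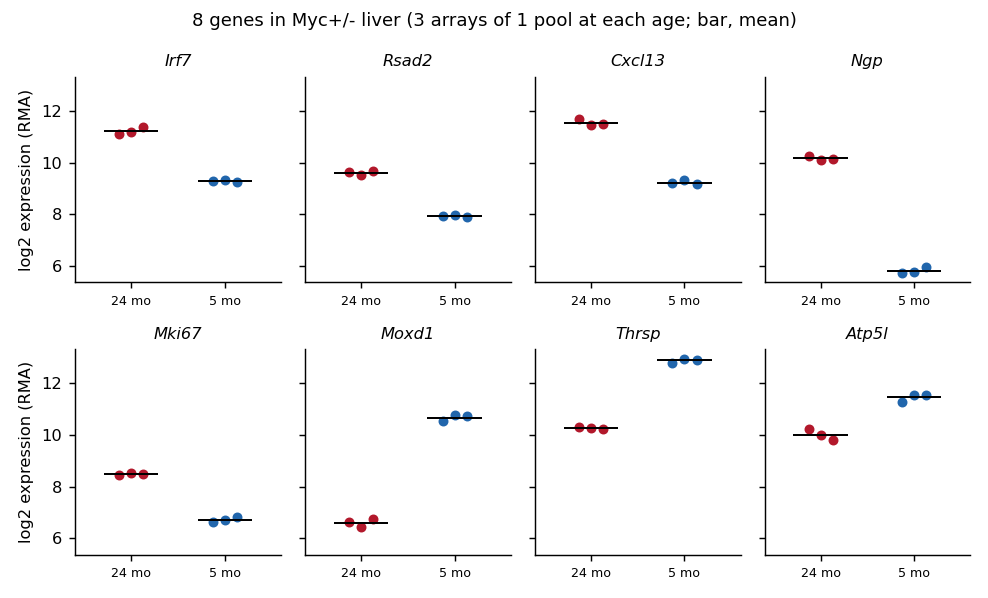
Expression (vertical axis, log2 RMA values) of 8 genes on the 3 arrays of the 24-month pool (red) and the 5-month pool (blue) of Myc+/- liver, with the mean as a bar. All 8 met the call rule, which requires that the arrays of the ages do not overlap. Ngp was 20.5-fold higher and Moxd1 16.7-fold lower at 24 months.

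Proliferation genes had 10 of 19 tested members called higher and 0 lower (median 0.62). Mki67, the Ki-67 marker of cycling cells, read 8.46, 8.54 and 8.48 in 24-month livers, against 6.63, 6.72 and 6.81 in 5-month livers, and rose 3.42-fold (adjusted p = 0.0066). Ccna2 rose 2.57-fold, the mitotic kinases Plk1 and Aurkb 2.41-fold and 2.00-fold, and the cytokinesis factor Ect2 2.41-fold. Pcna, a replication clamp, differed by 0.11 and Tyms by -0.07. Under a 60th percentile brightness filter 2 of these genes were left. The immune genes above moved in the same direction, and the part that cycling immune cells had in these values was not tested.

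Genes of stellate cells, collagens and matrix had 12 of 30 tested members called higher and 0 lower (median 0.32). Mmp13, a collagenase, rose 4.14-fold, reading 8.58, 8.59 and 8.96 in 24-month livers against 6.74, 6.50 and 6.73 in 5-month livers (adjusted p = 0.0019). Thbs1 rose 3.04-fold, the intermediate filament gene Vim 2.65-fold, and Acta2, the smooth muscle actin of activated stellate cells, 2.13-fold. Lrat, which stores vitamin A in resting stellate cells, differed by 0.10 (0.04 without the first 5-month array), and Reln by 0.18. Among 19 endothelial genes 3 were called higher: the sinusoidal lectins Clec4g (1.94-fold) and Clec1b, and the hyaluronan receptor Lyve1 (1.77-fold). Clec1b lost its call without the first 5-month array, at 0.51. Cholangiocyte and progenitor genes had 3 of 10 called, and 1 of 10 after centring. That gene was Cd24a, which rose 2.83-fold, whereas the duct keratin Krt7 differed by -0.04 and Sox9 by 0.18.

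Of 17 senescence and p53 target genes, 3 were called higher and 1 lower, and 1 higher after centring. Gadd45b rose 2.37-fold and Gadd45a fell by 0.78, and both belong to the same family of stress-induced genes. Immediate early genes had 5 of 21 tested members called higher and 0 lower. Egr1, a zinc finger factor induced within minutes of a stimulus, read 10.33, 10.37 and 10.39 in 24-month livers, against 8.37, 8.34 and 8.44 in 5-month livers, and rose 3.95-fold (1.98 ± 0.10, adjusted p = 0.0013). Jun rose 2.09-fold and Fos 2.00-fold, whereas Junb differed by -0.03 and Zfp36 by -0.01. The CArG box of the serum response factor was present in the upstream 250 bases of 1 of 16 such genes with a promoter entry, Zfp36 (6.25%, against 1.62% of all genes).

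Clock repressor and output genes read lower and activator genes higher. In the circadian loop CLOCK and BMAL1 (gene symbol Arntl here) bind E-boxes and switch on the Per and Cry repressors and the PAR bZIP factors, which in turn act at D-boxes. Among 13 repressor genes 5 were called lower and 1 higher, with a median of -0.37. Ciart, a repressor of CLOCK and BMAL1, read 7.48, 6.89 and 6.97 in 24-month livers, against 9.85, 10.14 and 10.25 in 5-month livers, and fell 7.82-fold (-2.97 ± 0.26, adjusted p = 0.0026). Its second tested probe set read -2.20. Per3 fell 3.05-fold and Per2 1.87-fold, and Bhlhe41 and Bhlhe40 fell 2.55-fold and 1.60-fold. Nr1d1, which encodes REV-ERB alpha, differed by 0.08, and in wild type liver by -0.63, and this genotype difference did not pass its limma test. The repressor called higher was the kinase gene Csnk1e (0.60), and the call was lost when arrays were centred.

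Clock output genes had 5 of 11 members called lower and 1 higher (median -0.53). Dbp, a PAR bZIP factor with a large daily swing, read 8.42, 8.74 and 8.55 in 24-month livers, against 10.48, 10.38 and 10.49 in 5-month livers, a 3.68-fold fall (adjusted p = 0.0075). Usp2, Wee1, Tef and the phosphatidate phosphatase Lpin1 fell 3.17-fold, 2.06-fold, 1.92-fold and 2.13-fold, and the vasopressin receptor gene Avpr1a rose 2.00-fold. Lpin1 was near level in wild type liver (-0.06), and its genotype difference did not pass its limma test. Of the 3 tested activators, Arntl rose 1.81-fold, to 8.97 at 24 months against 8.11 at 5 months, and Clock rose 1.43-fold. The repressors and outputs thus read lower and the activators higher at 24 months, as in wild type liver, where 8 of 13 repressors were called lower and Dbp differed by -3.05. In muscle of the same Myc+/- cohorts the repressors had a median of -0.43, and in adipose tissue -0.40. The sources used here do not give the hour at which each cohort was killed, and its part was not tested.

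The E-box (CACGTG) stood in the upstream 250 bases of 5 of the 23 clock genes with a promoter entry (21.7%, against 6.86% of all genes), namely Bhlhe41, Ciart, Cry1, Per1 and Tef. The D-box (TTATGTAA or TTATGCAA, either strand) stood in 2 of the 23 (8.70%, against 1.79%), Per1 and Per3. The sequences of Ciart and Per3 are shown because these repressors fell most and hold several copies. They are from RefSeq (GRCm38.p6), 5′ to 3′ on the minus strand, at chr3:95882229-95882478 and chr4:151044666-151044915, with E-boxes of Ciart and D-boxes of Per3 in capitals.
Ciart: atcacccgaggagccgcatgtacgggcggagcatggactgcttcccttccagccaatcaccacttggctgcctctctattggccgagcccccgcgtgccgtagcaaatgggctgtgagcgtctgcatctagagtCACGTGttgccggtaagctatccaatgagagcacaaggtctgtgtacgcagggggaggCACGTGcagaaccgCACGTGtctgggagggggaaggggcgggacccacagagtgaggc
Per3: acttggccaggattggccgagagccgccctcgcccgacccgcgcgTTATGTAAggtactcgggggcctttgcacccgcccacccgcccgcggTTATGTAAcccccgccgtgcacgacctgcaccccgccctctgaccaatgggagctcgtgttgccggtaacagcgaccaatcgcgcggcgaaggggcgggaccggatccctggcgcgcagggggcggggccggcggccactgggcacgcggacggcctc
Ciart holds 3 E-boxes and Per3 holds 2 D-boxes, and none of the copies overlap.

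**Figure D3:**
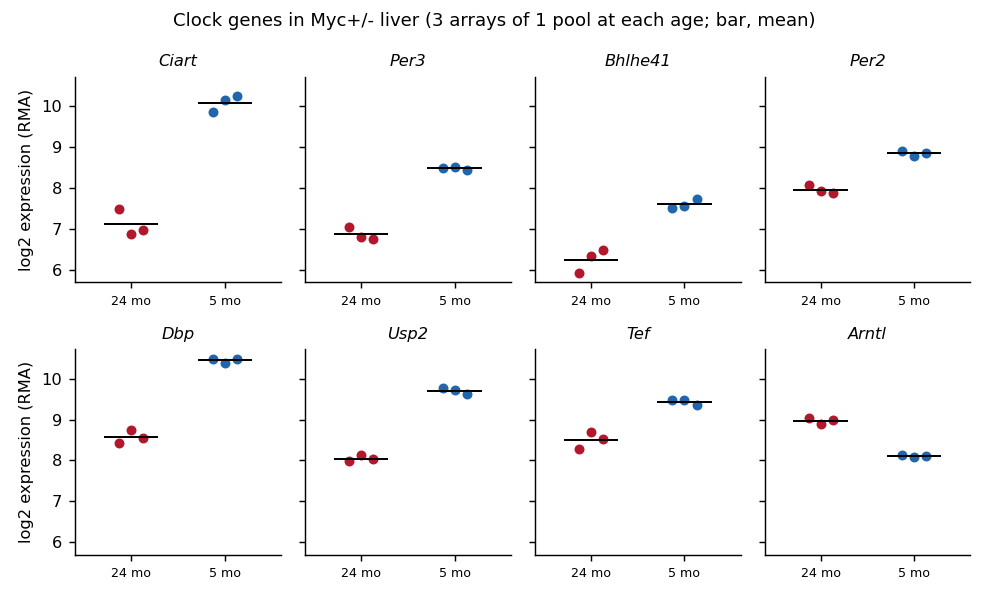
Expression (vertical axis, log2 RMA values) of 8 clock genes on the 3 arrays of the 24-month pool (red) and the 5-month pool (blue) of Myc+/- liver, with the mean as a bar. Arntl lay higher at 24 months, and Ciart, Per3, Bhlhe41, Per2, Dbp, Usp2 and Tef lay lower. All 8 met the call rule, which requires that the arrays of the ages do not overlap.

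Genes of fatty acid and triglyceride synthesis were lower. Of 20 tested members, 9 were called lower and 0 higher, 7 fell in the fit, and the median was -0.50. Thrsp, a lipogenic gene induced by thyroid hormone and carbohydrate, read 10.33, 10.28 and 10.23 in 24-month livers, against 12.79, 12.95 and 12.91 in 5-month livers, and fell 6.09-fold (-2.61 ± 0.37, adjusted p = 0.0081). Fasn, the fatty acid synthase, fell 2.46-fold, Srebf1, its transcriptional activator, 2.36-fold, and Me1, which supplies NADPH, 1.96-fold. Elovl6, a fatty acid elongase, was called at -1.21 ± 0.38 and missed the test (adjusted p = 0.065). Scd1 differed by 0.02 and Fads1 by -0.07, and by -0.24 and -0.17 without the first 5-month array. In wild type liver the group had a median of -0.31 with 3 members called lower, and Fasn differed by -0.58. For Fasn the genotype difference did not pass its limma test.

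Genes that burn fatty acids, under the receptor PPAR alpha, had 6 of 23 tested members called higher and 1 lower (median 0.36, and 0.03 in wild type liver). Cyp4a14, a fatty acid hydroxylase, read 13.54, 13.60 and 13.64 at 24 months, against 12.25, 12.55 and 12.55 at 5 months, and rose 2.20-fold (adjusted p = 0.024). Pdk4, which spares glucose by blocking pyruvate dehydrogenase, rose 1.87-fold, and the acyl-CoA thioesterase Acot2 1.64-fold. Cyp4a31 (0.98) and Vnn1 (0.87) were called with adjusted p = 0.12 and 0.098, and Cyp4a31 lies in a cluster of similar genes whose probes may share signal. Acaa1b, a peroxisomal thiolase, fell 2.18-fold, and Hadha differed by 0.12 (0.04 without the first 5-month array). Among lipid droplet genes 1 of 14 was called, G0s2, an inhibitor of the lipase ATGL, which fell 1.97-fold, whereas Plin2 differed by 0.12. Cholesterol genes had 1 of 20 called lower and 3 after centring, and Fdft1 differed by 0.04 (-0.02 without the first 5-month array). Of 14 bile acid genes 0 were called, and 1 lower without that array. Slc10a1, the main bile acid uptake carrier, differed by -0.05, and by -0.23 without it. Gluconeogenic genes had 2 of 14 called higher, against 8.72% of all genes. The 2 were Igfbp1 (1.72-fold) and Irs2 (1.53-fold), both of the insulin and IGF axis. G6pc differed by 0.16 (0.01 without the first 5-month array, when 1 member was called lower).

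Male-biased liver genes, which depend on the male pattern of growth hormone pulses, had 3 of 18 tested members called lower and 0 higher. The count was 7 without the first 5-month array and 6 with centred arrays. Moxd1, a monooxygenase-like gene, had the largest fall of all genes, at 6.64, 6.44 and 6.77 in 24-month livers against 10.52, 10.78 and 10.72 in 5-month livers, 16.7-fold lower (-4.06 ± 0.13, adjusted p = 0.00091). Cyp2d9 fell 1.68-fold, and the steroid dehydrogenase Hsd3b5 was called at -0.91 with adjusted p = 0.066. Cyp4a12a differed by 0.19 and Mup3 by 0.11, and by -0.01 and -0.12 without that array. Of 12 female-biased genes 4 were called higher and 0 lower (1 lower without that array), among them Cyp2b9 (1.75-fold, adjusted p = 0.011) and Atp6v0d2 (3.40-fold, adjusted p = 0.14). The male-biased median was -0.31 in Myc+/- liver and -0.68 in wild type liver, and the female-biased medians were 0.24 and 0.76 in the same order of genotypes. Whether these medians differ between the genotypes was not tested. Of 19 genes of the growth hormone and IGF axis 4 were called higher and 1 lower. Socs2, a feedback inhibitor of the growth hormone receptor, rose 2.78-fold, and its second tested probe set read 0.43. Cish, another such inhibitor, fell by 0.56, Igfals was called at -0.61 with adjusted p = 0.067, and Ghr differed by 0.11 (-0.01 without the first 5-month array).

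Transcripts of the respiratory chain and the ribosome were lower in part. Of 55 oxidative phosphorylation genes 16 were called lower and 0 higher, with 29 falling and 3 rising in the fit and a median of -0.33. Atp5l, a subunit of ATP synthase, read 10.25, 10.01 and 9.79 in 24-month livers, against 11.30, 11.53 and 11.53 in 5-month livers, a 2.71-fold fall (adjusted p = 0.0013), and its 6 tested probe sets read between -1.61 and -1.21. The complex I subunits Ndufa1, Ndufb10 and Ndufb8 fell 2.68-fold, 2.08-fold and 2.00-fold, while Cycs, cytochrome c, differed by 0.03 (-0.12 without the first 5-month array). Of 39 ribosomal protein genes 10 were called lower and 0 higher (median -0.26). Rps29 fell 2.45-fold and Rps19 2.31-fold, whereas Rps6 and Rps2 both differed by 0.08, and by -0.10 and -0.08 without that array. The groups had medians of -0.42 and -0.32 in wild type liver. Many of these genes have near-identical copies in the genome, so their signal may be shared.

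Ribosome biogenesis genes and other Myc targets had 3 of 30 members called higher and 0 lower, against 8.72% and 2.86% of all genes. Their median (0.04) changed sign with the scaling and without the first 5-month array (-0.02). Ccnd2, a cyclin, rose 1.91-fold, Ldha, lactate dehydrogenase, 1.62-fold and Dkc1, which modifies ribosomal RNA, 1.57-fold. Ncl, nucleolin, differed by 0.06 (-0.01 without that array) and Srm by 0.05. Small nucleolar RNAs, which guide modification or cleavage of ribosomal RNA, moved together. Of the 42 tested, 32 were called lower and 0 higher, and the median was -0.97. Snora74a read 9.22, 8.30 and 8.44 in 24-month livers, against 11.84, 11.96 and 11.94 in 5-month livers, and fell 9.55-fold (adjusted p = 0.0013). Snord118, the U8 RNA, fell 7.16-fold, Snora44 6.97-fold and Snord15a 5.63-fold. The same 42 RNAs had a median of -0.88 in wild type liver, -0.61 in Myc+/- muscle and 0.22 in Myc+/- adipose tissue. The labels name a pair of homogenization methods without saying which sample had which, and they give both a 3′ kit and a whole-transcript kit for labelling. The part of RNA preparation in these values was not tested.

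ER chaperone and unfolded protein genes had 3 of 22 members called higher and 0 lower, against 8.72% and 2.86% of all genes. In the fit 10 of the 22 rose and 1 fell, against 17.7% and 7.76% of all genes. Their median was 0.22, and in wild type liver 0.48, with 8 called higher and 1 lower there. Sdf2l1 rose 2.06-fold, Creld2 1.98-fold and the disulfide isomerase Pdia4 1.64-fold, and Herpud1 differed by -0.17 (-0.27 without the first 5-month array, adjusted p = 0.035). Of 11 heat shock genes, Dnajb1 and Dnaja1 were called higher, and Dnaja1 lost the call without the first 5-month array (0.53). A second Dnaja1 probe set read -0.49. Among 19 NRF2 and glutathione genes Hmox1, heme oxygenase, was called at 0.76 ± 0.28 (adjusted p = 0.095), and Gstm3 rose 1.52-fold but lost its call without the first 5-month array (0.45). Among 16 genes of NAD metabolism and sirtuins Sirt5, a mitochondrial desuccinylase, fell 1.68-fold, Sirt6 rose 1.48-fold without reaching the size called, and Sirt2 differed by 0.15. Zonation genes held 2 of 14 pericentral members called higher, against 8.72% of all genes. The 2 were Slc13a3 (1.70-fold) and Cyp2c37, which lost the call without the first 5-month array. Among 10 periportal genes the protease gene Ctsc rose 2.37-fold and Sult5a1 fell 1.56-fold.

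The age change in Myc+/- liver was set against that in wild type liver, whose pools are separate. In wild type liver 1309 probe sets were called higher (10% of those tested) and 567 lower (4.34%), or 1192 genes higher (10%) and 459 lower (3.85%). Averaged over the genotypes, limma passed 3989 probe sets higher with age (30.5%) and 2258 lower (17.3%). For Myc+/- liver alone limma passed 2284 (17.5%) and 1121 (8.57%). The averaged fit drew on the liver pools of both genotypes and had 3 residual degrees of freedom, against 2 for Myc+/- liver alone. The counts thus come from tests of unlike power and do not compare the size of the age change. Of the 1040 genes called higher in Myc+/- liver 751 were called higher in wild type liver too (72.2% of the Myc+/- calls and 63.0% of the wild type calls). Of the 341 called lower, 242 were shared (71.0% and 52.7%). Across the 11923 genes, which are not independent replicates, the differences in the 2 genotypes correlated at r = 0.81. A limma test of the difference itself took its error from the muscle and adipose pools too. It passed 10 probe sets with a larger age difference in Myc+/- liver (0.0765% of those tested) and 1 with a smaller difference (0.00765%).

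**Figure D4:**
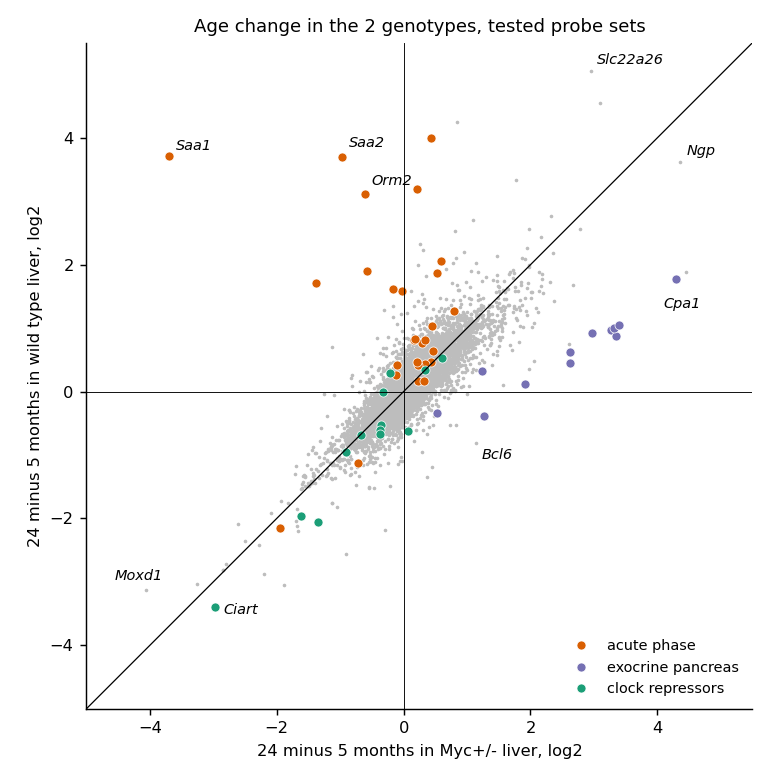
Difference between 24 and 5 months in Myc+/- liver (horizontal axis, log2) and in wild type liver (vertical axis, log2) for the 13073 tested probe sets; the diagonal marks equal change. Acute phase genes such as Saa1 lie high on the left (-3.69 in Myc+/- liver and 3.71 in wild type liver), and exocrine pancreas genes such as Cpa1 lie to the right of the diagonal (4.30 and 1.77).

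Genes of the acute phase, the plasma proteins that liver makes under inflammatory cytokines, read differently between the genotypes. Of 28 tested members 2 were called higher and 6 lower in Myc+/- liver (median 0.21), against 18 higher and 2 lower in wild type liver (median 0.82). Without the first 5-month array the Myc+/- counts were 1 higher and 7 lower (median 0.07). Saa1, a serum amyloid A gene, read 8.49, 8.27 and 8.59 in 24-month Myc+/- livers, against 11.95, 12.18 and 12.30 in 5-month Myc+/- livers, 12.9-fold lower (-3.69 ± 0.47, adjusted p = 0.0061). In wild type liver Saa1 averaged 12.40 at 24 months and 8.68 at 5 months. Saa2, Saa3 and the orosomucoid gene Orm2 differed by -0.96, -1.38 and -0.61 in Myc+/- liver, and by 3.70, 1.71 and 3.11 in wild type liver. Lcn2, which binds bacterial siderophores, differed by 0.44 and Orm3 by 0.22 in Myc+/- liver (0.33 and 0.12 without the first 5-month array), against 4.0011 and 3.19 in wild type liver. The difference in age change was -7.40 for Saa1, -3.72 for Orm2 and -3.56 for Lcn2, and with all arrays each missed its test (adjusted p = 0.052, 0.052 and 0.078). Without the first 5-month array Saa1 (-7.50) and Orm2 (-3.90) passed, each with an adjusted p of 0.044, and Lcn2 missed (adjusted p = 0.063). At 5 months the mean level over the 28 genes lay between 12.02 and 12.40 on the Myc+/- arrays, against 11.60 to 11.67 on the wild type arrays, with no overlap. At 24 months the order was reversed, again with no overlap. The mean level then lay between 12.08 and 12.15 on the Myc+/- arrays, against 12.84 to 12.87 on the wild type arrays. Hamp2 fell in Myc+/- liver by 1.94 and read -2.15 in wild type liver, Lbp rose 1.74-fold and read 1.27 in wild type liver, and Hp differed by 0.17 (0.04 without the first 5-month array). The Saa and Orm genes are close relatives, and their probes may share signal.

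Genes of the exocrine pancreas had 11 of 12 tested members called higher, 12 rising in the fit and a median of 2.80, against 7 called and a median of 0.75 in wild type liver. Cpa1, a carboxypeptidase, read 11.14, 11.08 and 11.002 in 24-month Myc+/- livers, against 6.71, 6.76 and 6.85 in 5-month Myc+/- livers, 19.7-fold higher. The colipase gene Clps, the lipase gene Cel, the ribonuclease gene Rnase1, the chymotrypsinogen gene Ctrb1 and Sycn, of the zymogen granule, rose 9.96-fold, 10.2-fold, 10.5-fold, 9.69-fold and 7.85-fold. The trypsin genes 2210010C04Rik and Try5 rose 21.9-fold and 6.18-fold and belong to a family of similar genes. The mean level over the 12 genes lay between 9.30 and 9.53 on the 24-month Myc+/- arrays and between 6.84 and 6.87 on the 5-month Myc+/- arrays. It was 7.56 to 7.65 on 24-month and 6.88 to 7.03 on 5-month wild type arrays. Another 11 pancreas genes on the array were below the brightness filter and differed by -0.26 to 3.96. That filter (6.87) used the mean over all 12 liver arrays, so a gene could pass it through the 24-month Myc+/- pool. Cel averaged 9.23 in that pool and 5.88 in the 5-month Myc+/- pool. In wild type liver it averaged 6.96 at 24 months and 6.08 at 5 months. The count and median of the tested members thus lean towards genes high in the 24-month Myc+/- pool. The RNA of 8 mice was mixed in the 24-month Myc+/- pool, and how many of them carried these transcripts was not tested. Genes listed for skeletal muscle had 1 of 14 called in Myc+/- liver (Des, 0.63), and that call was lost when the arrays were centred. Adipocyte genes had 1 of 10 called (Lpl, 3.32-fold) and kidney, gut and sperm genes 0 of 4. In wild type liver 7 of the 14 muscle genes were called higher, with a median of 0.58, against -0.10 in Myc+/- liver. Adipocyte genes had 2 of 10 called higher in wild type liver, and kidney, gut and sperm genes 1 of 4 called lower.

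**Figure D5:**
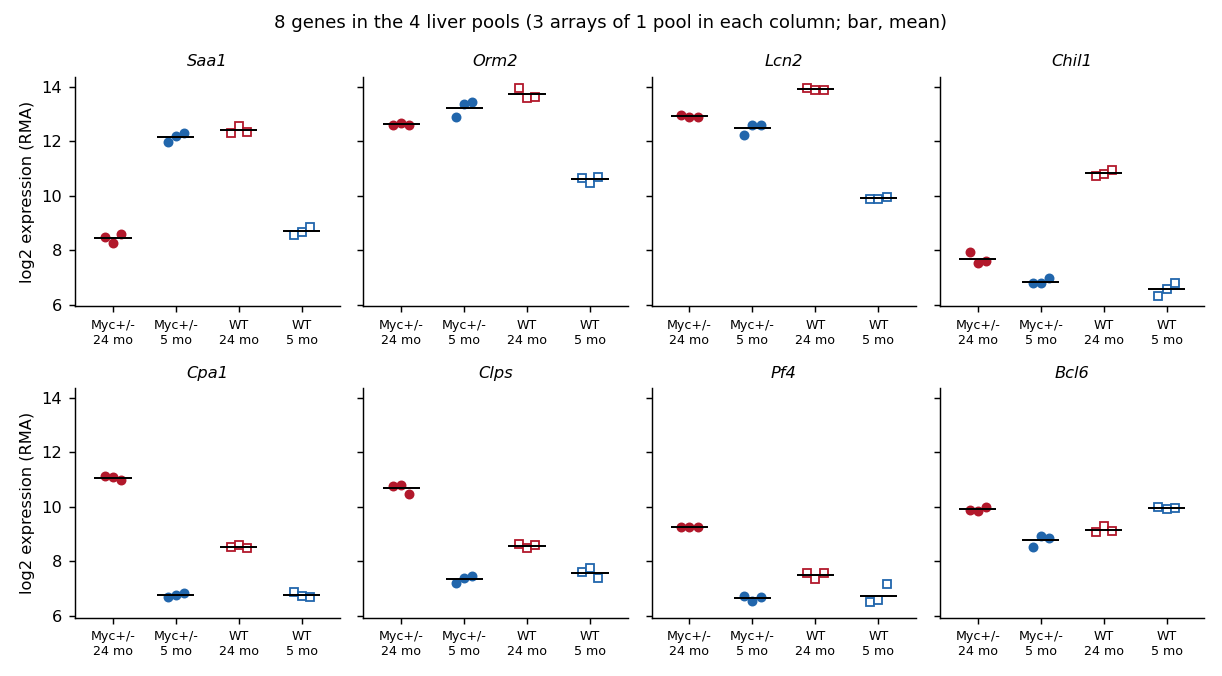
Expression (vertical axis, log2 RMA values) of 8 genes on the 3 arrays of each liver pool, Myc+/- at 24 and 5 months (filled) and wild type (WT) at 24 and 5 months (open), with the mean as a bar. Saa1 reads 8.45 and 12.14 in the Myc+/- pools and 12.40 and 8.68 in the wild type pools; Cpa1, Clps and Pf4 are highest in the 24-month Myc+/- pool.

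Over all genes, 1 was called higher in Myc+/- and lower in wild type liver, and 6 the other way round. The first was Bcl6, a transcriptional repressor listed here with the growth hormone axis. It read 9.87, 9.84 and 10.01 in 24-month Myc+/- livers, against 8.54, 8.94 and 8.85 in 5-month Myc+/- livers, and averaged 9.16 at 24 months and 9.97 at 5 months in wild type liver. The difference in age change was 1.95 (adjusted p = 0.049, limma, with its error from the muscle and adipose pools). Under a 60th percentile brightness filter 0 probe sets passed this limma test. The 6 were Saa1, Saa2, Saa3, Orm2, Cxcl1 and Lrtm1, and Cxcl1 and Lrtm1 were named after their values were seen. Chil1, a chitinase-like gene, differed by 0.84 in Myc+/- and 4.25 in wild type liver (adjusted p of the difference = 0.057), and the metallothionein gene Mt1 by -0.58 and 1.90 (0.054, and 0.045 without the first 5-month array). Without that array Mt1 differed by -0.66 in Myc+/- liver and was called lower. Slc22a26, an organic anion carrier, rose 7.72-fold and Dmbt1, a mucosal defence protein, 8.57-fold in Myc+/- liver, with wild type differences of 5.06 and 4.55. The differences between genotypes (-2.11 and -1.45) did not pass their test (adjusted p = 0.12 and 0.11).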

How the data were processed

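Values are log2 expression per probe set as deposited by the authors, summarised by RMA in Expression Console per the submitters' processing notes; versions are not given in the sources used here. Probe sets were named from the platform annotation (23410 of 35556 listed, 1621 with several symbols, 21698 of the 21789 with 1 symbol found in RefSeq's gene table). Those above the 40th percentile of mean level over the 12 liver arrays were tested (13073, 11923 genes, 1 probe set each by highest mean). A dim gene could pass this filter through the pool in which it was high, so counts and medians of dim groups lean that way. The number of arrays limits the precision to array-to-array error (median SD 0.09 in 24-month and 0.08 in 5-month Myc+/- liver), and liver array medians ran from 6.95 to 7.04.

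limma 3.58.1 (R 4.3.3, intensity trend, Benjamini-Hochberg) was fitted to the 12 pool means with tissue, age and genotype within tissue, and age by genotype in liver (2 residual degrees of freedom), and was checked on simulated data. A fit without the last term gave age averaged over genotypes. The members and lists were chosen with earlier results of these data known. Genes were named by rule: the 15 largest called in each direction, up to 6 per list, up to 2 per list with a difference under 0.20, the 8 with the largest genotype difference each way, and Myc. Other genes (Cxcl1, Lrtm1, and those that passed the genotype test) were named after their values were seen.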

Additional observations from a re-analysis of the deposited data

Results flagged for a closer look

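For 11 genes the age difference in Myc+/- liver minus that in wild type liver passed its own limma test at an adjusted p under 0.05. The values are log2 differences of differences, each from 4 pools. Of these, 7 are digestive enzyme or secretory genes of exocrine pancreas, at 2.53 for Cpa1, 2.47 for Cel, 2.34 for Rnase1, 2.32 for Clps, 2.3005 for Ctrb1, 2.17 for Try5 and 2.00 for Ctrl, and Sycn of the zymogen granule stood at 2.05. Pf4, the platelet chemokine, stood at 1.85, with 9.25, 9.27 and 9.27 in 24-month Myc+/- livers, against 6.75, 6.55 and 6.68 in 5-month Myc+/- livers, and means of 7.50 and 6.75 in the 24-month and 5-month wild type pools. Bcl6 stood at 1.95, higher with age in Myc+/- and lower in wild type liver. Dnajc12, a co-chaperone of aromatic amino acid hydroxylases, stood at -1.92, with a difference of 0.31 in Myc+/- and 2.23 in wild type liver. Adjusted p-values with all arrays lay between 0.041 and 0.049. The error of this test came from the muscle and adipose pools (2 residual degrees of freedom). It does not measure how much liver pools vary in the transcripts of these 11 genes, so these passes do not establish a difference between the genotypes. Under a 60th percentile brightness filter 0 probe sets passed this limma test in either direction (lowest adjusted p = 0.084; 748 had an unadjusted p under 0.05), and all 11 passed without the first 5-month Myc+/- array.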

How the results depend on the processing

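At a 2-fold size 344 probe sets were called higher and 120 lower in 24-month Myc+/- liver, and under a 60th percentile brightness filter 675 were called higher. With arrays centred on their median 698 were called lower. Leaving out each array in turn gave 1034 to 1207 higher and 431 to 502 lower. The limma counts of age averaged over genotypes (3989 higher, 2258 lower) and of age in Myc+/- liver alone (2284 and 1121) stayed within 1.5 times under each alternative run. The test of the difference between genotypes moved most. Of probe sets with a smaller age difference in Myc+/- liver it passed 6 without the variance trend, 12 without a brightness filter and 8 without the first 5-month Myc+/- array, an alternative chosen after seeing the data. Under the 60th percentile filter limma passed 0 and 0, with 748 at an unadjusted p under 0.05. With array-to-array error alone 460 and 534 passed, and 474 and 551 with the replicate number as a block, also chosen after seeing the data; such fits take the arrays of 1 pool for replicates. With limma on the 12 liver arrays in place of the no-overlap rule, 1103 probe sets were called higher and 448 lower, and the replicate block gave 1103 and 448 as well. Deviations of same-numbered arrays correlated at -0.01, -0.15 and -0.13, and those of differently numbered arrays at -0.02 to 0.16. Whether arrays of the 2 ages shared runs was not tested. Of 3608 values of named genes under the alternatives 259 moved by more than the array SD, and 0 values of called genes changed sign. Without the first 5-month array 17 genes that were not called changed sign. The causes of these changes were not tested. With 1 pool an age, no setting measures the spread between mice.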

Other observations

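Erythroid genes were in part higher in aged Myc+/- liver. Slc4a1, the band 3 anion exchanger of red cells, read 9.07, 8.96 and 9.01 in 24-month livers, against 7.16, 6.87 and 7.10 in 5-month livers, a 3.92-fold rise, and differed by 0.35 in wild type liver (adjusted p of the difference between genotypes = 0.057, and 0.0496 without the first 5-month Myc+/- array). Tfrc, the transferrin receptor, rose 1.83-fold, whereas Alas2 differed by -0.14 and Klf1 by -0.16. Of 5 tested erythroid genes 2 were called higher.

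Some genes were among the largest increases without belonging to a list. Clec4n, a fungal-sensing lectin of myeloid cells, rose 6.35-fold and Ly6a2 6.91-fold, with wild type differences of 1.68 and 2.57.

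Among 7 tested genes of fetal liver and liver tumours 1 was called higher, Ly6d, at 0.65 with adjusted p = 0.32 in the limma fit of Myc+/- liver, and 0 after centring, when 1 was called lower. Vaultrc5, a vault RNA, was 3.28-fold lower at 24 months. Of 60 tested microRNA genes 3 were called lower and 1 higher, and of 205 long noncoding RNA genes 13 were called lower and 4 higher. Over all genes 2.86% were called lower and 8.72% higher.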
